A study of Mus musculus with 24 samples.

Results

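The exons described here are the 559 exons gained in WT neurons, out of 53662 exon events of the splicing table that are not microexon events. They were chosen on the percent spliced in (PSI), the percentage of an exon's reads that include it. An exon was taken if it was covered in all 12 ESC and neuron samples, which held for 26425 events, and if its mean PSI was at least 15 points higher in WT neurons than in WT embryonic stem cells (ESCs). The WT ESC and WT neuron values therefore chose the exons, and what they show is given as a description without a test. The exons lie in 441 genes, of which 365 hold 1 and 76 hold 2 or more, and no exon overlaps another.

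RNA had been sequenced from mouse E14-derived ESCs and from 3 kinds of cells derived from them in culture, in 2 genotypes with 3 replicates each, which gives 24 samples in 8 groups. WT cells carry the normal Polr2a, the gene of the largest subunit of RNA polymerase II (RNAPII), and slow/slow cells carry the R749H substitution, introduced by gene targeting, on both alleles. ESCs were kept in 2i medium. Neural progenitor cells (NPCs) were collected at day 7 of monolayer culture in N2B27 medium, and PSA-NCAM+ cells, which display the polysialylated neural cell adhesion molecule, were purified on beads at day 10. Neurons were replated at day 7 and collected after 14 further days. The study describes 1 line of each genotype and plated WT cells at a lower initial density than slow/slow cells, so genotype, line and plating density cannot be told apart. The 3 replicates came from separate differentiation experiments. The substitution cannot be seen in counts per gene or in PSI, so the genotype labels could not be checked from the files.

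A cassette exon is either joined into the messenger RNA or left out with its flanking introns. In neurons many such exons are switched by RNA-binding proteins. Ptbp1 holds neural exons out in other cells and is replaced by Ptbp2 as neurons form, Srrm4 promotes inclusion of very short neural exons, and Nova, Rbfox, Elavl, Celf and Mbnl proteins act on further sets. The speed at which RNAPII moves along a gene is thought to set how long a splice site is available before competing sites downstream are made, and the comparison asks how far cells with the slow polymerase complete the neuronal switch and at which stage they depart from WT.

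The stage labels were checked against marker genes, in CPM, the count relative to the TMM-scaled library total. Summed over 5 neuronal markers, the WT neuron samples ranged from 2396 to 2580 CPM and the slow/slow neuron samples from 2235 to 2391 CPM. Most of this sum was Tubb3 and Dcx, with means of 928 and 1118 CPM in WT and 1191 and 983 CPM in slow/slow neurons. The other markers were lower in slow/slow neurons. Syn1 was at 60.3 against 221 CPM, Snap25 at 60.2 against 208 CPM and Rbfox3 at 19.7 against 36.6 CPM. At the intermediate stages the sum was low, at 27.9 to 28.2 CPM in WT NPCs, 23 to 36 CPM in WT PSA-NCAM+ cells and 105 to 125 CPM in slow/slow NPCs, while slow/slow ESCs had 123 to 152 CPM. The neuronal gene Dcx was at 1.6, 2.28 and 2 CPM in WT PSA-NCAM+ cells, so neuronal transcripts were nearly absent from those libraries. The pluripotency gene Pou5f1 was still at 337, 504 and 396 CPM there. Summed over 5 ESC markers, WT ESCs had 5273 to 5734 CPM, WT NPCs 1887 to 1961 CPM and slow/slow NPCs 1114 to 1232 CPM. The 3 progenitor markers tested summed to 399 to 406 CPM in WT ESCs, 272 to 288 CPM in WT NPCs and 334 to 361 CPM in slow/slow NPCs. Most of this sum was Sox2, with a mean of 385 CPM in WT ESCs and 241 CPM in WT NPCs. The other 2 markers were higher in WT NPCs than in WT ESCs. Pax6 was at 4.3 against 0.187 CPM and Nes at 33.1 against 18.7 CPM. In bulk RNA, a smaller number of cells of a type and less RNA per cell cannot be told apart.

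One library stood apart. Slow/slow PSA-NCAM+ replicate 1 differed from replicates 2 and 3 in the neuronal marker sum (54.9 against 163 and 254 CPM) and in a sum of 3 mesenchymal collagen genes (644 against 166 and 138 CPM). WT PSA-NCAM+ replicate 1 also had the highest collagen sum of its group, at 487 CPM against 168 and 253 CPM. The exons called in slow/slow PSA-NCAM+ cells against slow/slow ESCs, and against WT PSA-NCAM+ cells, are counted with and without slow/slow replicate 1. Most other counts for PSA-NCAM+ cells include it. The part of cell composition in all of these was not tested. Total counts per library ranged from 32974432 to 104466886.

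The sequences of 16 of the exons are shown, chosen among coding exons to represent the patterns described below. They were read from the GENCODE transcripts of the exons that match them in length, strand and both flanking intron lengths. Coordinates are in mm9, letters run 5′ to 3′ along the transcript, and capitals mark the 3 bases at each end that border the splice sites. The first set switched from near absence in ESCs to inclusion in most neuronal transcripts of both genotypes. Gabbr1 encodes a subunit of the GABA-B receptor (exon at chr17:37204159-37204309, plus strand), Clasp2 a protein of growing microtubule ends (chr9:113787868-113787891, plus strand), Madd a guanine nucleotide exchange factor of synaptic vesicle Rab proteins (chr2:90995170-90995232, minus strand) and Mapk8 the kinase JNK1 (chr14:34203859-34203930, minus strand).
Gabbr1: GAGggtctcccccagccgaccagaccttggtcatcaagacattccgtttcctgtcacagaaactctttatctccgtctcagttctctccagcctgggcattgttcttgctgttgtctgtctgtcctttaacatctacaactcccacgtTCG
Clasp2: CTCttaggagacatacggactAAG
Madd: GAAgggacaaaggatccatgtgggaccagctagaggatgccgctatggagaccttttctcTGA
Mapk8: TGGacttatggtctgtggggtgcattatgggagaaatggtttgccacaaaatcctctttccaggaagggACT

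The next set shows 3 short exons. The exon of Synj1, a phosphoinositide phosphatase of synaptic vesicle recycling (chr16:90971809-90971832, minus strand), is 24 bases long, a multiple of 3. It holds an in-frame stop codon in the matched transcript. The exon of Phf21a, a histone reader of the LSD1 corepressor complex (chr2:92191766-92191788, plus strand), shifts the reading frame, and that of Meaf6, a subunit of histone acetyltransferase complexes (chr4:124784761-124784790, plus strand), keeps it.
Synj1: TTTctgaacagacattacagtCAG
Phf21a: CCAatgaggaacactggccaAAG
Meaf6: CCCgtctggcatgtttgattatgacttTGA

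In 4 of the exons shown inclusion was lower in slow/slow than in WT NPCs. Mta1 encodes a subunit of the NuRD chromatin remodelling complex (chr12:114371752-114371787, plus strand), Zfp207 a zinc finger protein of mitotic spindle assembly (chr11:80206586-80206678, plus strand), Rab11fip3 an effector of the recycling endosome GTPase Rab11 (chr17:26148942-26149076, minus strand) and Tmem184b a membrane protein (chr15:79194088-79194108, minus strand).
Mta1: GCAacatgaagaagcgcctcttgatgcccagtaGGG
Zfp207: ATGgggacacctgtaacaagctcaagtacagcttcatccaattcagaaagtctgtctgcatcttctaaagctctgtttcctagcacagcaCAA
Rab11fip3: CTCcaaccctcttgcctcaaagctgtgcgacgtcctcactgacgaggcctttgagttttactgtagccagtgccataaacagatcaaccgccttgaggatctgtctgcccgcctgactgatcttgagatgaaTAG
Tmem184b: TGCtgacgtacggcccatACG

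In another 4 inclusion was higher in slow/slow NPCs. Exoc1 encodes a subunit of the exocyst, which tethers vesicles to the plasma membrane (chr5:76986844-76986888, plus strand), Rragb a GTPase of amino acid sensing (chrX:149582995-149583078, plus strand), Cadm1 a cell adhesion molecule of synapses (chr9:47637460-47637492, plus strand) and Pard3 a cell polarity scaffold (chr8:129934632-129934673, plus strand). The exon of Tfdp2, a partner of E2F transcription factors (chr9:96190999-96191046, plus strand), moved in opposite directions in the genotypes.
Exoc1: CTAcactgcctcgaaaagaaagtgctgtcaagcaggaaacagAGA
Rragb: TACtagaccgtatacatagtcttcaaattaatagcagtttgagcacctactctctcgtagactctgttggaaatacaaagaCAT
Cadm1: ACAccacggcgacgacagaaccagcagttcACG
Pard3: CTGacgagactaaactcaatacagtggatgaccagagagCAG
Tfdp2: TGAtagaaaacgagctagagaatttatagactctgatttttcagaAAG

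The exons gained in WT neurons were short, and most had a length that is a multiple of 3. Their median length was 72 bases, against 114 bases over the 26425 covered exons and 96 bases over the 489 exons lost in WT neurons (at least 15 points lower than in WT ESCs). Exons of 27 bases or fewer made up 102 of the 559 (18.2%), 7 of the 489 lost exons (1.43%) and 288 of all covered exons (1.09%). These are short exons quantified by the general exon pipeline, since events from the separate microexon pipeline were left out by the rule. The length was a multiple of 3 in 410 of them (73.3%), against 56.2% of lost and 39.8% of all covered exons. The median upstream and downstream introns were 2192 and 2151 bases long, against 1681 and 1689 bases over all covered exons. These are descriptions of the list, and exons that vary in any cell type may share them. A match in the annotation was found for 421 of the 559 (75.3%), too few for a comparison of coding position over the list. Of the matched exons, 332 were coding, 32 partly coding, 19 in untranslated regions and 38 in transcripts without a reading frame. An in-frame stop codon lay in 13 of the 332 coding exons.

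Across stages, the gained exons stayed near their ESC level through NPCs and PSA-NCAM+ cells and rose in neurons of both genotypes. The mean PSI over the exons was 16.9 ± 0.28 (SD, n = 3 samples) in WT ESCs, 21.5 ± 0.073 in WT NPCs, 21.5 ± 0.34 in WT PSA-NCAM+ cells and 57.3 ± 1.9 in WT neurons. In slow/slow cells it was 17.4 ± 0.039, 20.6 ± 0.13, 22 ± 0.63 and 46.5 ± 0.11 at the same stages. Between WT ESCs and WT neurons, the contrast that chose them, 554 of the 559 were also called higher and 0 lower by the scheme described below, with 2.73% higher and 2.86% lower over all exons tested there. The median PSI in the 3 WT neuron samples was 61.6, 56.5 and 55.9, and in the 3 slow/slow neuron samples 44.3, 44.21 and 44.35. All 3 slow/slow neuron samples lay below the 3 WT neuron samples, and far above every sample of an earlier stage.

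**Figure D1:**
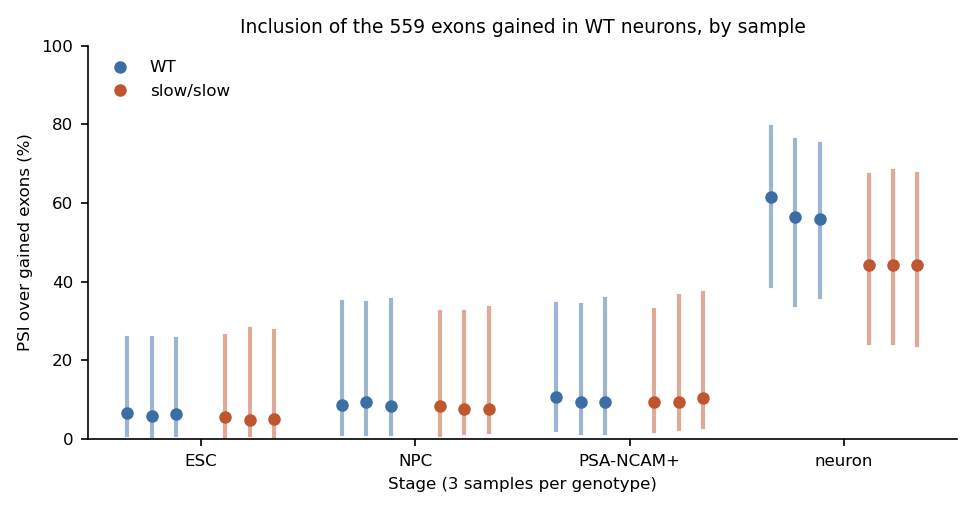
PSI (%) over the 559 exons in each of the 24 samples, grouped by stage and genotype (WT blue, slow/slow orange). Points are sample medians and bars span the 25th to 75th percentile of the exons. Medians stayed between 4.9 and 10.8 before the neuronal stage, and the slow/slow neuron samples (44.21 to 44.35) lay under the WT neuron samples (55.9 to 61.6).

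Slow/slow cells gained most of these exons as they became neurons. Between slow/slow ESCs and slow/slow neurons, whose PSI values the rule did not use, 458 of the 559 exons rose and 1 fell, and the change was above 0 in 552. An exon was called when its mean PSI differed by more than 10 points and the posterior probability of a difference in that direction exceeded 0.95. Over all 27483 exons tested in that contrast, 2.51% rose and 1.67% fell. Of the 489 lost exons, 2 rose and 283 fell in slow/slow cells. The calls weigh the read-counting uncertainty of each sample together with the spread between the 3 samples of each group. A count near this size was also reached by limma on the logit of the reads (454).

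The size of the slow/slow gain was smaller than the WT gain for most exons. The WT gain averaged 40.4 points and the slow/slow gain 29.1 points, and the median exon reached 70.9% of its WT gain. Read with 1 slow/slow neuron sample at a time, the median was 70.9%, 70.6% and 69.8%. By exon, 7 reached none of the WT gain, 37 up to 25%, 89 from 25 to 50%, 183 from 50 to 75%, 151 from 75 to 100% and 92 exceeded it. Because the exons were chosen for a large WT gain, the choice can lower this ratio. When the exons were rechosen on 2 WT replicates and the gain was read in the third, the median was 67.3%, 74.3% and 73.6%. These medians leave out 9, 5 and 3 exons whose WT gain in the third replicate was 5 points or less. When exons were chosen on a slow/slow gain of at least 15 points instead, 501 met the rule. Their median ratio was 83.3% without the 24 exons whose WT gain was 5 points or less, and leaving those out can move it. Over all 501 the mean gain was 39.7 points in WT and 34 points in slow/slow cells. The WT gain thus averaged more than the slow/slow gain under either choice. Both gains reached 15 points in 414 exons, which is 74.1% of the WT list and 82.6% of the slow/slow list.

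**Figure D2:**
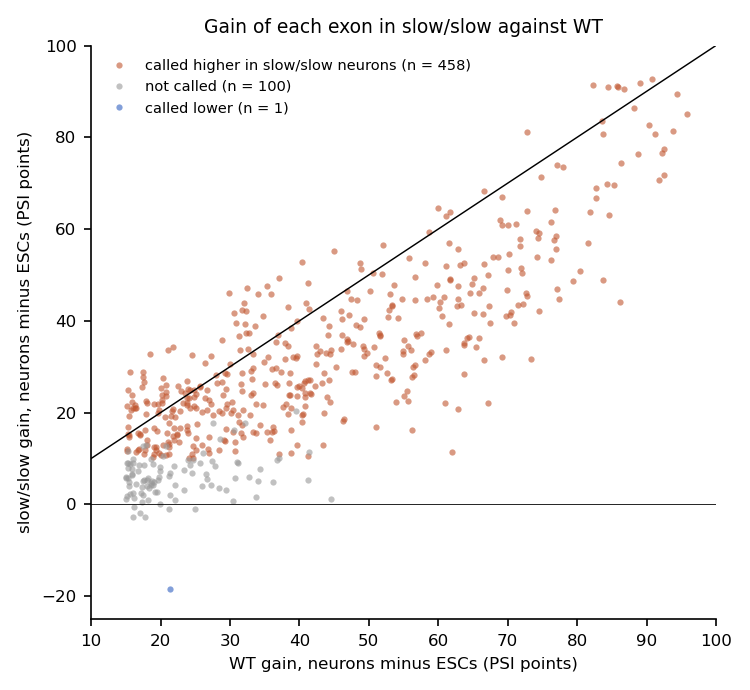
Gain of each of the 559 exons from ESCs to neurons in PSI points, WT on the horizontal and slow/slow on the vertical axis, each point 1 exon, coloured by its call in slow/slow cells. The line marks equal gains. Most points lie above 0 and below the line, with 458 called higher, 100 not called and 1 called lower.

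The WT neuron value is part of the rule, so the direct comparison of slow/slow with WT neurons is a description. In it 251 of the 559 exons were lower and 10 were higher in slow/slow neurons, with 1.41% lower and 1.7% higher over all 34136 exons tested. Between the genotypes' ESCs, where the WT value is also part of the rule, 24 were higher and 13 lower in slow/slow cells (0.341% and 0.407% over all exons).

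Several exons named for a large WT or slow/slow gain were nearly complete in slow/slow neurons. Those of Clasp2 and Dctn4 were named for the slow/slow gain alone, a choice that favours near completeness. For Gabbr1 the PSI was 5.03, 3.82 and 3.14 in WT ESCs and 98.6, 98.8 and 98 in WT neurons. In slow/slow cells it was 5.34, 4.74 and 3.23 in ESCs and 93.7, 93.5 and 94.6 in neurons, a rise of 89.5 points and 94.7% of the WT gain. The slow/slow neuron samples lay below the WT range. The exon of Clasp2 was at 0 in all 6 ESC samples and at 87.2, 81.3 and 82.8 in WT neurons. In slow/slow neurons it was at 79.1, 77.3 and 85.9, so the groups overlapped. The exon of Mast1, a microtubule-associated kinase, with the largest slow/slow gain (92.6 points), went from 2.27, 2.13 and 0 in slow/slow ESCs to 93, 94.1 and 95.2 in slow/slow neurons. WT neurons were at 95.3, 95.3 and 96.2. Dctn4, a dynactin subunit, reached 82.7, 85.6 and 89.2 in slow/slow neurons against 89.7, 86.1 and 82.7 in WT neurons, with full overlap. The 22-base exon of Sft2d1, a protein of vesicle transport, reached 92.3, 93.4 and 94.2 in slow/slow and 98.2, 95.1 and 93.1 in WT neurons, and its host gene was expressed at 1.73 CPM in slow/slow neurons.

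Other large switches stopped short in slow/slow neurons. The 13-base exon of Dclk2, a doublecortin-like kinase, was at 84.1, 85 and 82.1 in slow/slow neurons against 92.9, 90.6 and 92.2 in WT neurons. The Madd exon was at 79.4, 83.1 and 86.6 against 93.7, 90.9 and 91.5. The 24-base Synj1 exon was at 79.5, 72.9 and 79.8 against 86.2, 91.8 and 88.4. In these 3 genes no slow/slow neuron sample reached the WT range, and each exon was below 7 PSI in every ESC and NPC sample. Mapk8 was at 73.3, 77.1 and 70.9 in slow/slow and 87.96, 88.68 and 83.12 in WT neurons. The exon of Meaf6 went furthest apart among these, at 52.5, 47.8 and 51.5 in slow/slow neurons against 79, 71.3 and 66.6 in WT neurons. All of these exons rose from ESCs to neurons by the test within slow/slow cells.

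At the other end, a few exons did not rise in slow/slow cells. Tfdp2 was the 1 exon that fell, from 44.1, 53.8 and 50.4 in slow/slow ESCs to 36.6, 31.7 and 25 in slow/slow neurons (posterior probability 0.985 for a fall of 18.3 points). In WT cells it was at 33.8, 38.4 and 38.6 in ESCs and at 56.5, 61 and 57.1 in neurons. All 3 slow/slow neuron samples lay below the slow/slow ESC and the WT neuron samples. The exons of Bcor, a BCL6 corepressor, Pla2g6, a phospholipase, Rif1, a replication timing factor, and Ranbp17, a nuclear transport receptor, had the next smallest slow/slow gains, of −2.70, −1.86, −1.06 and −2.75 points, and none was called. Pla2g6 and Rif1 were already higher in slow/slow ESCs, Pla2g6 at 55.6, 49.5 and 62.9 against 26.6, 29.6 and 27.8 in WT ESCs, and Rif1 at 60.4, 64.5 and 64 against 49.7, 43.7 and 49.7. At the 15-point limit, exons just inside were those of Ube2j2 (15.03 points) and D16H22S680E (15.07), with slow/slow gains of 5.73 and 1.25 points. Just outside were Tpd52l1 (14.98), Yeats2 (14.96) and Ndc80 (14.96), with slow/slow gains of 6.72, 9.41 and 6.68 points.

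The proportion of exons called within slow/slow cells depended on the size of the WT gain. All 170 exons with a WT gain of 50 points or more were called, as were 185 of 214 with 25 to 50 points and 103 of 175 with less. The median share reached was 65.25% for WT gains under 25 points, 70.1% for 25 to 50 points and 74.2% for 50 points or more. Exons of 27 bases or fewer reached a median of 77.6% of the WT gain, those of 28 to 60 bases 66.1%, those of 61 to 150 bases 70.7% and longer ones 69.8%. The median WT gains of these length classes were 48.7, 33.6, 32.3 and 31.8 points in that order. Length and WT gain were not separated. Exons whose length was a multiple of 3 reached 71% and the others 69.2%. These medians are descriptions, and exons of 1 gene are not independent.

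The exons were grouped by what their genes do. Of 40 exons in 25 genes of the cytoskeleton and membrane skeleton, 38 rose within slow/slow cells and the median exon reached 81.5% of its WT gain. Of 47 exons in 28 genes of membrane traffic, 42 rose, with a median of 77.6%. Of 33 exons in 21 genes of adhesion and synaptic scaffolds, 29 rose (72.1%). Of 40 exons in 25 genes of kinases, phosphatases and small GTPase regulators, 34 rose (72.2%), and all 5 exons of ion channels, pumps and receptors rose (94.7%). The 24 exons of chromatin and transcription genes and the 18 exons of splicing and RNA-binding genes had the lowest medians, 61% and 54.2%, with 20 and 13 called. Across all 559 exons 458 rose with a median of 70.9%, and nothing particular to a list is read from these counts.

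Further examples from the lists differed in how far they went. The exon of Erc1, a protein of the presynaptic active zone, was at 54.9, 56 and 51.4 in slow/slow neurons and at 78.7, 75.7 and 76.7 in WT neurons. The 801-base exon of Ncam1, the molecule that carries polysialic acid, was at 54.8, 55.6 and 57.4 against 70.9, 71.1 and 72.4. The 18-base exon of Atp6v0a1, a subunit of the vesicular proton pump, was at 76.2, 79.4 and 78.9 against 93.8, 91.2 and 91.1. For Kalrn, a guanine nucleotide exchange factor of dendritic spines, the values were 54.5, 63.1 and 66.6 against 74.5, 75.9 and 75. In these 4 genes all slow/slow neuron samples lay below all WT neuron samples. Phf21a was at 63, 62.1 and 64.6 in slow/slow neurons against 76.2, 73.4 and 69.8 in WT neurons. R3hdm2, which encodes a protein with an R3H RNA-binding domain, was at 60.8, 62.6 and 61.8 against 84, 72 and 78.7. The exon of Tial1, an RNA-binding splicing factor, went the other way, at 70.5, 69.7 and 67.2 in slow/slow neurons and 62.9, 47.9 and 47.2 in WT neurons.

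Several genes held many of the exons, and the exons of 1 gene did not always move alike. The 7 exons of Mast1 within 3325 bases of chromosome 8 reached between 93.7 and 95.6 PSI in slow/slow neurons and between 95.6 and 96.9 in WT neurons. The 6 exons of Snap91, the clathrin adaptor AP180, within 3411 bases of chromosome 9 reached 80.2 to 86.4 in slow/slow and 96.3 to 98.8 in WT neurons. By contrast, the 6 exons of Clasp1 over 52555 bases of chromosome 1 reached from 25.6 to 124% of their WT gain, the 6 exons of Clasp2 from 57.7 to 122% and the 4 exons of Plekha5 from 12.6 to 70.4%. The 6 exons of Aak1, a kinase of clathrin-coated vesicles, reached from 47.4 to 78.7%. These genes were chosen for their number of exons, 4 or more.

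Most of the gain lay between the intermediate stages and neurons in both genotypes. Neurons were replated from day 7 cultures and PSA-NCAM+ cells were purified at day 10, so PSA-NCAM+ cells are not the direct precursors of the sampled neurons, and the shares below order the stages without implying descent. Over the 536 exons covered in all 24 samples, the step from ESCs to NPCs made up 11.4% of the summed WT gain, that from NPCs to PSA-NCAM+ cells 0.237% and that to neurons 88.4%. In slow/slow cells the steps made up 11.2%, 4.48% and 84.4%. In slow/slow NPCs 41 of 543 exons were higher than in slow/slow ESCs and 2 were lower (0.4% and 0.334% over all exons). In slow/slow PSA-NCAM+ cells 61 of 547 were higher and 4 lower than in ESCs (0.429% and 1.14%), and without slow/slow PSA-NCAM+ replicate 1 82 were higher and 4 lower. From slow/slow NPCs to PSA-NCAM+ cells 10 of 540 rose and 3 fell (0.0986% and 0.595%). From slow/slow NPCs to neurons 411 of 543 rose and 4 fell (2.26% and 1.6%), and from slow/slow PSA-NCAM+ cells to neurons 396 of 547 rose and 3 fell (2.6% and 1.19%).

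By the first stage at which an exon was above slow/slow ESCs, 41 of 540 were called in NPCs, 35 first in PSA-NCAM+ cells and 372 first in neurons, while 92 were called at none. In WT cells 102 of 548 exons were higher and 11 lower in NPCs than in ESCs, where all exons gave 1.88% and 0.522%. From WT NPCs to WT neurons 473 of 548 rose and 4 fell (2.5% and 4.25% over all exons), and from WT PSA-NCAM+ cells 471 of 546 rose and 2 fell (2.55% and 3.06%). The WT ESC and WT neuron values are part of the rule, so these are descriptions. Of the 539 exons tested in both genotypes 25 were early in both, 24.5% of the WT early exons and 61% of the slow/slow early exons. Between WT NPCs and WT PSA-NCAM+ cells 19 of 543 exons rose and 27 fell (0.241% and 1.05% over all exons).

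**Figure D3:**
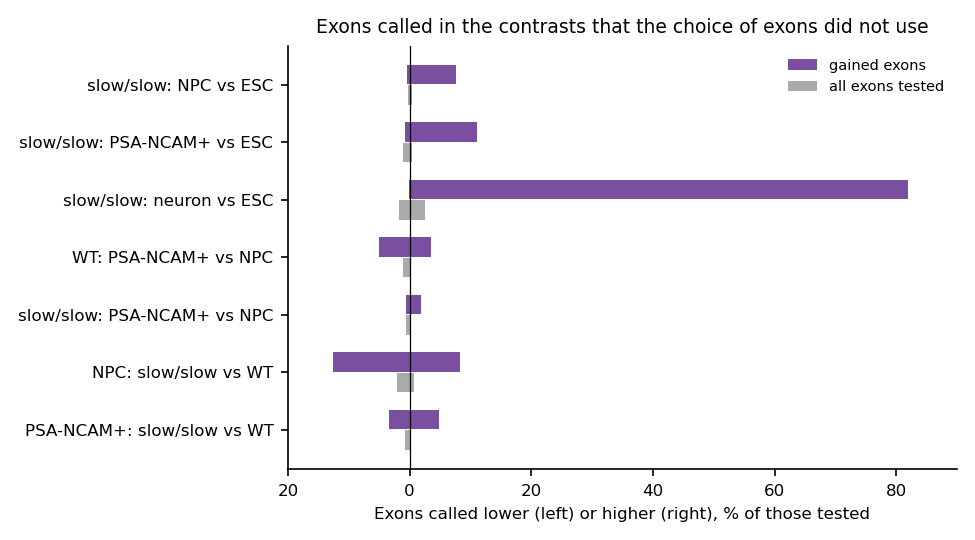
Percentage of exons called higher (right of 0) or lower (left of 0) in 7 contrasts, for the gained exons (purple) and all exons tested (grey), per contrast. The contrast of slow/slow neurons with slow/slow ESCs holds the longest bar (81.9% higher), and the genotype contrasts in NPCs and PSA-NCAM+ cells extend to both sides.

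Before the neuronal stage, slow/slow and WT cells already differed in some of these exons, in both directions. In NPCs, whose samples the rule did not use, 45 of 539 exons were higher and 68 lower in slow/slow cells, against 0.7% higher and 2.1% lower over all 32447 exons tested. The gained exons thus held more calls in either direction than all exons did, 8.35% and 12.6% of those tested. They were chosen for varying between stages, while the median covered exon was at 99.4 to 99.6 PSI in WT NPC samples, so more calls can follow from the choice. Of 477 lost exons, 18 were higher and 114 lower (3.77% and 23.9%), so the excess is not particular to the gained exons. The part of cell composition in these NPC calls was not tested. In PSA-NCAM+ cells 26 of 543 gained exons were higher and 18 lower (0.198% and 0.697% over all exons). Without slow/slow PSA-NCAM+ replicate 1 these were 43 and 37 of 546, and without slow/slow replicate 2 15 and 13, so the number rests on which of these libraries is used. In both NPCs and PSA-NCAM+ cells 18 exons were higher and 13 lower in slow/slow cells, and 0 were called in opposite directions. These made up 40% of the exons higher in NPCs and 72% of those higher in PSA-NCAM+ cells, and 19.4% and 72.2% of those lower.

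The 6 exons with the largest falls in slow/slow NPCs were all called higher in WT NPCs than in WT ESCs, and 4 of them, in Csnk1g3, Mta1, Rab11fip3 and Wsb1, were already called lower in slow/slow than in WT ESCs. Both of these contrasts share the rule's WT ESC values. The ESC differences were −31.4, −12, −21.2 and −11.3 points. Over the 539 exons tested at both stages, 12 of the 13 lower in slow/slow ESCs were also lower in slow/slow NPCs, as 15 of the 23 higher ones were also higher. Csnk1g3, a casein kinase, was at 69.4, 71.8 and 69.1 in WT NPCs and at 18.5, 17 and 13.5 in slow/slow NPCs, and its exon was also low in slow/slow ESCs (19.1, 15.9 and 19.1 against 53.4, 43.8 and 51.1). Mta1 was at 47.9, 48.6 and 52.9 in WT NPCs and at 9.37, 7.45 and 10 in slow/slow NPCs. It stayed low in slow/slow PSA-NCAM+ cells, at 30.3, 12.9 and 12.3 against 64.1, 55.6 and 60.6, and reached 26.8, 29.3 and 25.8 in slow/slow neurons against 58.3, 50.6 and 51.9 in WT neurons. No slow/slow sample of Mta1 overlapped the WT samples of its stage. Zfp207 was at 57.5, 55.5 and 58.8 in WT NPCs and at 17.8, 18.2 and 19.3 in slow/slow NPCs, while in neurons slow/slow samples were at 49.9, 49.3 and 46 and WT samples at 59.5, 51.2 and 53.1, a mean difference of −6.23 points that was not called. In slow/slow PSA-NCAM+ cells Zfp207 was at 53, 20.7 and 21.6, with replicate 1 apart. Rab11fip3 was at 62, 55 and 66.9 in WT NPCs and at 20, 20.8 and 20 in slow/slow NPCs. Wsb1, a ubiquitin ligase adaptor, was at 64.1, 70.2 and 72.4 in WT NPCs against 15.7, 17.8 and 13.3, and met the WT level in neurons (57.2, 56.8 and 55.6 against 59, 53.9 and 54.7). The Bptf exon, of a subunit of the NURF chromatin remodelling complex, was at 73.4, 74.3 and 82.2 in WT NPCs against 44.2, 42.1 and 40.6.

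Of the 6 exons with the largest rises in slow/slow NPCs, 5 were also called higher in slow/slow than in WT ESCs, a contrast that shares the rule's WT ESC values. The sixth, in Ssbp3, was 12 points higher in slow/slow ESCs and not called there (posterior probability 0.933). Pard3 was at 89.5, 88.4 and 93.7 in slow/slow NPCs against 43.4, 44.7 and 42.4 in WT NPCs, and at 72.7, 75 and 65 in slow/slow ESCs against 40.7, 32.2 and 39.5 in WT ESCs. In slow/slow neurons it was at 66.5, 74.2 and 76.6, in the WT range of 68.3, 70.3 and 75.2, so its slow/slow gain was only 1.52 points. Exoc1 was at 48.8, 40 and 48.6 in slow/slow NPCs against 2.73, 4.51 and 4.92 in WT NPCs, and at 51.4, 54.3 and 45 in slow/slow ESCs against 11.7, 15.9 and 14.5. Both genotypes ended at a similar level in neurons, 82.3, 87.4 and 83.7 in slow/slow and 81.1, 78.4 and 78.6 in WT. Rragb was at 71, 74.1 and 65.7 in slow/slow NPCs against 39.3, 36.5 and 31.4, and at 70.3, 65.1 and 63.5 in slow/slow PSA-NCAM+ cells against 28.6, 33.3 and 27.2. For Rragb all 3 slow/slow PSA-NCAM+ libraries were above every WT library. Cadm1 was at 47.9, 57.4 and 53.2 in slow/slow NPCs against 20.2, 20.3 and 19 and ended at 91.7, 90.4 and 90.6 against 91.04, 89.79 and 90.18 in neurons. Golga4, a golgin, was at 43.1, 47.8 and 54.3 in slow/slow NPCs against 14.1, 11.8 and 9.69. Ssbp3, a cofactor of LIM-domain transcription complexes, was at 67.5, 72.1 and 73.2 against 33.2, 31.2 and 30.6, and WT ESCs were at 65.4, 65.1 and 68.8, so WT cells fell by 34.8 points on average from ESCs to NPCs.

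Further exons were named for PSA-NCAM+ cells. The 408-base exon of Epb4.1l1, a membrane skeleton protein of neurons, was at 34.8, 48.4 and 61.3 in slow/slow and 62.4, 81.1 and 83.4 in WT PSA-NCAM+ cells. The exon of Cd47, a surface receptor, was higher in slow/slow PSA-NCAM+ cells, at 14.7, 41.3 and 46.1 against 5.65, 11.7 and 7.95. Epb4.1l1, Cd47 and Golga4 each lost their call when certain single libraries of that stage were left out. Exoc1 in slow/slow PSA-NCAM+ cells was at 21.2, 57.1 and 49.2 and Golga4 at 16.5, 45.2 and 48.5, with replicate 1 the lowest in each.

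**Figure D4:**
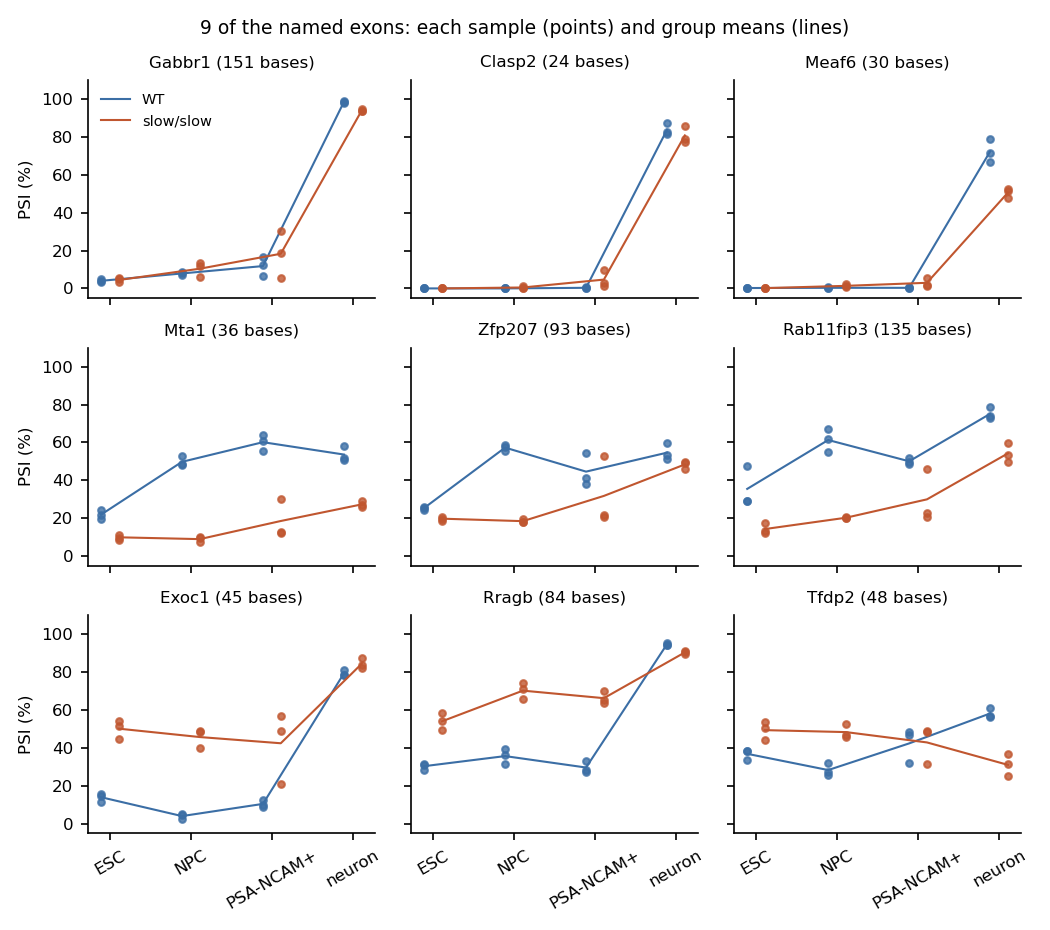
PSI (%) of 9 exons at the 4 stages, each point 1 sample and lines joining group means, WT blue and slow/slow orange. Gabbr1, Clasp2 and Meaf6 rose mainly at the neuronal stage in both genotypes, Mta1, Zfp207 and Rab11fip3 were higher in WT than in slow/slow NPCs, Exoc1 and Rragb were higher in slow/slow cells before neurons, and Tfdp2 fell in slow/slow neurons.

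The genotype effect itself was compared between NPCs and PSA-NCAM+ cells with limma. It differed at an FDR under 0.05 for 11 of 536 gained exons, against 0.149% of the 31588 exons tested, and 99 of the gained exons had an unadjusted p under 0.05. For Tmem184b WT NPCs were at 34.4, 37.1 and 37.9 and slow/slow NPCs at 10.8, 12.9 and 9.43, while in PSA-NCAM+ cells WT was at 11.5, 9.3 and 16.7 and slow/slow at 9.26, 12.6 and 11. The effect was −25.4 points in NPCs and −1.55 points in PSA-NCAM+ cells (FDR 0.0338). For Bptf it was −34.3 and −7.98 points (FDR 0.0158), and for Ccdc64, an adaptor of dynein and kinesin motors, −20.9 and 2.85 points (FDR 0.0103). The count was 3 without WT NPC replicate 2 and 4 without WT NPC replicate 3, and between 5 and 7 when any other NPC library was left out.

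The genes that host these exons were lower more often than higher in slow/slow neurons. Of 436 host genes tested with edgeR's quasi-likelihood test, 187 were lower and 60 higher in slow/slow neurons at an FDR under 0.05, 42.9% and 13.8%, against 28.4% and 23.4% of all 16627 genes. In NPCs 112 were lower and 141 higher (27.4% and 29.3% of all genes), in PSA-NCAM+ cells 82 lower and 164 higher (28.1% and 28.6%) and in ESCs 87 lower and 108 higher (21.9% and 18.5%). The exons in host genes that were lower in slow/slow neurons reached a median of 71.5% of the WT gain, those in genes that were not called 73.4% and those in genes that were higher 55.1%. These classes also differed in their median WT gain, at 44.2, 32.6 and 26.4 points in the same order. The share was larger where the WT gain was larger, as given above, and the 2 were not separated here. Gabbr1 itself was lower in slow/slow neurons, at 223 against 431 CPM (log2 change −0.95, FDR 0.0048), while its exon was nearly complete. Synj1 was at 76.4 against 186 CPM (log2 change −1.28, FDR 7.83e-10) and Ncam1 at 140 against 346 CPM (log2 change −1.31, FDR 2.43e-08). Tfdp2 was higher, at 44.9 against 23 CPM (log2 change 0.97, FDR 1.74e-05), and Meaf6 was at 26.7 against 31.6 CPM (FDR 0.184).

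Most splicing regulators in the list were higher in neurons than in ESCs of the same genotype. Of 27 regulator genes in the list 25 were tested. From ESCs to neurons 20 rose and 2 fell in WT cells, where all genes gave 43.4% and 39.4%. In slow/slow cells 21 rose and 2 fell, where all genes gave 44% and 38.4%. The genes were not all the same. Mbnl1 rose in WT cells (log2 change 1.25, FDR 3.13e-08) and had a log2 change of 0.15 in slow/slow cells (FDR 0.304), while Mbnl2 and Mbnl3 rose in slow/slow cells (1.33 and 1.59, FDR 0.00226 and 0.00638) and had log2 changes of −0.06 and 0.82 in WT cells (FDR 0.875 and 0.147). Whether these changes differed between genotypes was not tested. Ptbp1, the repressor of neural exons, was at 1036, 1048 and 1167 CPM in WT ESCs and at 277, 334 and 332 CPM in WT neurons. In slow/slow cells it was at 1155, 1258 and 1116 CPM in ESCs and at 290, 294 and 277 CPM in neurons, and the genotypes did not pass the test in neurons (FDR 0.381). Srrm4 was at 86.8, 79.1 and 81.4 CPM in WT and at 93.8, 96.1 and 88.9 CPM in slow/slow neurons (log2 change 0.17 ± 0.24, SE, FDR 0.574).

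In slow/slow neurons 10 of the 25 regulators were lower and 3 higher than in WT neurons, where all genes gave 28.4% lower and 23.4% higher. Nova1 was at 136, 132 and 127 CPM in slow/slow neurons against 322, 316 and 301 CPM in WT neurons, a log2 change of −1.25 ± 0.18 (SE, FDR 1.15e-05). Celf4 was at 125, 135 and 136 CPM against 383, 350 and 354 CPM (−1.46 ± 0.12, FDR 1.03e-08). Celf6 was at 23.8, 23.6 and 24.1 CPM against 59, 49.8 and 51.7 CPM (−1.17 ± 0.25, FDR 0.000645). Rbfox3 was at 19, 21.2 and 18.9 CPM against 40.1, 34.4 and 35.3 CPM (−0.89 ± 0.23, FDR 0.00338), and Rbfox2 at 476, 485 and 462 CPM against 690, 619 and 643 CPM (−0.46 ± 0.092, FDR 0.000321). In each of these genes the groups did not overlap. Ptbp2 was higher in slow/slow neurons, at 278, 288 and 274 CPM against 224, 221 and 217 CPM (0.34 ± 0.079, FDR 0.00109), as were Mbnl3 and Esrp2. Nova2, Rbfox1, Srrm3, Celf2 and Celf3 were among the 12 not called.

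At the NPC stage 13 of the 25 regulators were above and 2 below their WT level in slow/slow cells, where all genes gave 29.3% and 27.4%. At the PSA-NCAM+ stage 17 were above and 3 below, where all genes gave 28.6% and 28.1%. In ESCs 7 were higher and 5 lower, where all genes gave 18.5% and 21.9%. The difference of the genotype effect between neurons and NPCs itself passed an FDR of 0.05 for 19 of the 25, of which 16 were lower in the neuron effect and 3 higher, and for 55.1% of all genes. Ptbp2 was at 88.4, 106 and 94.6 CPM in slow/slow NPCs against 45.9, 44 and 44.4 CPM in WT NPCs (log2 change 1.10 ± 0.080, FDR 1.62e-09). Ptbp1 was higher too, at 954, 909 and 939 CPM against 624, 661 and 616 CPM (0.56 ± 0.12, FDR 0.000706). The neuronal Elavl4 was at 4.93, 7.52 and 6.19 CPM against 1.06, 0.875 and 1.07 CPM, far under its neuronal level of 189 CPM in WT neurons. Mbnl2 was lower, at 32.1, 32.2 and 30.6 CPM against 104, 91.7 and 91.5 CPM (−1.60 ± 0.36, FDR 0.000859), and Rbfox2 was lower at 175, 172 and 179 CPM against 233, 237 and 228 CPM. Slow/slow NPCs also had a higher neuronal marker sum than WT NPCs, as given above, and Pax6, a progenitor gene, at 36.4, 43.8 and 42.4 CPM against 4.18, 4.08 and 4.63 CPM. The part of cell composition in the regulator levels was not tested.

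**Figure D5:**
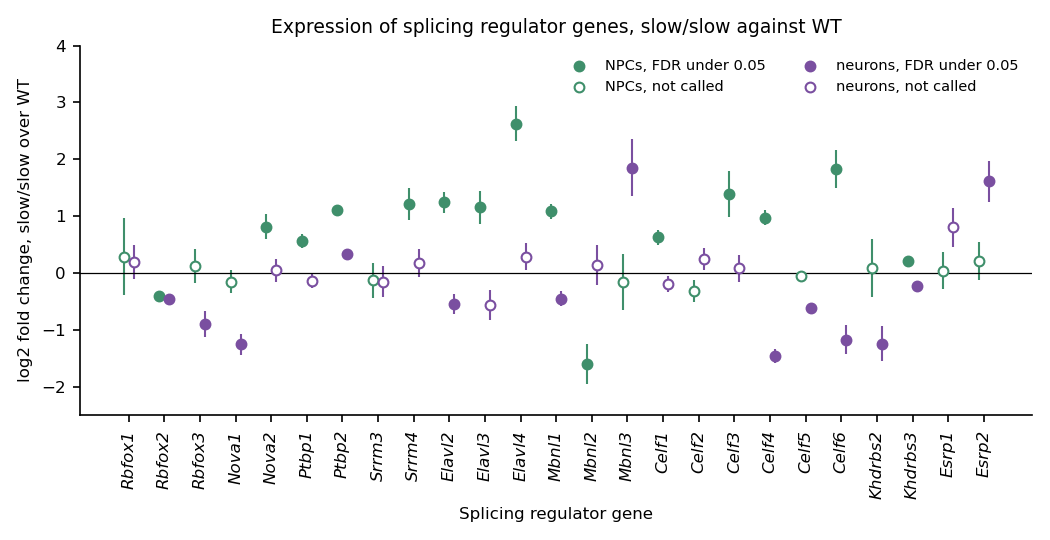
Log2 fold change of 25 splicing regulator genes in slow/slow over WT cells, in NPCs (green) and neurons (purple), with standard errors from edgeR. Filled points have an FDR under 0.05. In NPCs 13 filled points lie above 0 and 2 below, and in neurons 3 above and 10 below.

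Marker sums of other cell types moved with genotype in the neuron samples. The 3 collagen genes of the mesenchymal list summed to 205 to 258 CPM in WT neurons and to 508 to 541 CPM in slow/slow neurons, with 3 of 3 higher. The 3 progenitor markers tested summed to 349 to 422 CPM in WT and 579 to 649 CPM in slow/slow neurons, with 3 of 3 higher. The 2 endothelial markers summed to 3.7 to 5.07 CPM in WT and 85.3 to 104 CPM in slow/slow neurons, with 2 of 2 higher. The 5 oligodendrocyte lineage markers summed to 64.8 to 84.5 CPM in WT and 20.5 to 24.3 CPM in slow/slow neurons, with 2 higher and 2 lower. For the 3 astrocyte markers the sums were 30.7 to 39.3 and 9.55 to 12.2 CPM, with 1 higher and 2 lower. Most of the astrocyte sum was Aldh1l1, whose mean fell from 31.95 CPM in WT neurons to 7.28 CPM with the slow polymerase. Its mean was larger still in WT ESCs, 51.5 CPM, so this sum was not specific to astrocytes. Aqp4 was the marker that was higher in slow/slow neurons (log2 change 1.19, FDR 0.0352). Of the 5 neuronal markers 3, Syn1, Snap25 and Rbfox3, were lower and 0 higher in slow/slow neurons by edgeR. The microglial genes Cx3cr1 and Aif1 had at most 13 and 19 counts in any library. The part of these cell types in the lower inclusion in slow/slow neurons was not tested.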

How the data were processed

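Poly(A)+ RNA libraries of 24 samples had been sequenced with 75-base paired-end reads. Per the study's methods the authors mapped them to mm9 and quantified splicing with vast-tools version 1. The submitters' processing notes name bcl2fastq 2.17.1.14 and edgeR. Deposited per sample were PSI values, in percent, with quality scores and corrected inclusion and exclusion reads per event, and raw read counts per gene. The authors also deposited mean RPKM per group, log2 fold changes and adjusted p-values of their own edgeR comparison, and 1 percent PSI estimate per group with their calls. These were not used. The number of columns of per-sample values left unused was 0.

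Exons were tested per contrast over all non-microexon exon events with coverage SOK, OK or LOW in the 6 samples compared. The posterior scheme of vast-tools diff was rebuilt with a uniform prior, and a call needed a change over 10 points and a posterior probability over 0.95, which is how the study's stated threshold was read. Coverage filters remove exons of weakly expressed genes, and the number of junction reads limits the precision of PSI. Whether gene counting used the strand was not stated. Interactions used limma 3.58.1 on the empirical logit (0.5 added). Genes were tested with edgeR 4.0.16 in R 4.3.3 (TMM, filterByExpr, quasi-likelihood F test, 1 model of 8 groups, 16627 genes, 16 residual degrees of freedom, Benjamini-Hochberg FDR under 0.05). Tested on simulated data for the NPC genotype contrast with 200 of 15000 exons changed by 20 points, the posterior scheme recovered 178 with 2 false calls and limma 149 with 0.

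Named exons were covered in all 24 samples, 1 per gene within each rule: the 6 largest WT gains, the 6 largest called falls and rises at the NPC stage, 4 and 4 at the PSA-NCAM+ stage, the 5 smallest and largest slow/slow gains, 3 on each side of the 15-point limit, 2 per gene list by slow/slow gain, and 5 interactions. Expression was given for the regulator and marker lists and host genes of these exons. Genes with 4 or more of the exons were chosen after their values were seen. The exons and lists were chosen with earlier results of these data known. Exon letters came from GENCODE vM21 transcripts matched by exon and intron lengths. Ptbp3, Qk, Map2 and Sox1 were not analysed here, and 1 exon that the rule names is not reported here.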

Additional observations from a re-analysis of the deposited data

Results flagged for a closer look

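The effect of genotype on inclusion differed between NPCs and PSA-NCAM+ cells for 11 of the gained exons, by limma's test of the difference itself. The effect in NPCs (slow/slow minus WT) minus that in PSA-NCAM+ cells was −26.4 points for Bptf, −23.9 for Tmem184b, −23.8 for Ccdc64, −22 for a 207-base exon of Mast1, −19.7 for Pdlim7, a protein with PDZ and LIM domains, −13.5 for Gm14490 and −12.8 for Tcf20, a transcriptional coregulator. It was 18.4 points for Actn1 and 11.9 for Spna2, which encode the actin-linked proteins alpha-actinin and alpha-spectrin, 9.89 for Prrc2b and 5.88 for Pkm2, a pyruvate kinase. Those of Actn1, Gm14490, Pkm2, Prrc2b, Spna2 and Tcf20 were named because they passed this test. In Mast1 the effect was −17.5 points in NPCs and 4.44 points in PSA-NCAM+ cells, where slow/slow replicates were at 8.82, 19 and 24.4.

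The effect of genotype on expression differed between neurons and NPCs for 19 splicing regulators, by edgeR's test of the difference. The log2 effect in neurons minus that in NPCs was −1.02 for Rbfox3, −1.10 for Nova1, −0.77 for Nova2, −0.69 for Ptbp1, −0.76 for Ptbp2 and −1.05 for Srrm4. Among the Elavl genes it was −1.80 for Elavl2, −1.72 for Elavl3 and −2.34 for Elavl4. Among the Celf genes it was −0.82 for Celf1, −1.31 for Celf3, −2.44 for Celf4, −0.57 for Celf5 and −2.99 for Celf6, and it was −0.43 for Khdrbs3. Among the Mbnl genes it was −1.54 for Mbnl1 but 1.73 for Mbnl2 and 2.01 for Mbnl3, and it was 1.40 for the epithelial regulator Esrp2. This difference passed the same threshold in 55.1% of all genes.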

How the results depend on the processing

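Counts of called exons were within 1.5 times of those given under most alternatives. The calls within slow/slow cells became 193 when balanced junctions were required, since 238 exons were then tested. The 113 calls between genotypes in NPCs became 74 for exons with a WT gain of at least 25 points. The 44 calls in PSA-NCAM+ cells became 27 with a change of at least 15 points, 29 for a WT gain of at least 25 points and 80 without replicate 1 of both genotypes, an alternative chosen after seeing the data. The median share of the WT gain, 70.9%, was 67.32%, 74.3% and 73.59% with exons rechosen without 1 WT replicate, 71.96% for a WT gain of at least 25 points, 72.08% as a ratio of summed gains and 83.25% for exons chosen on the slow/slow gain. The medians of the rechosen exons and of those chosen on the slow/slow gain leave out exons with a WT gain of 5 points or less.

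Leaving out 1 replicate at a time gave 454 to 463 calls from ESCs to neurons in slow/slow cells, 43 to 52 from ESCs to NPCs and 61 to 86 from ESCs to PSA-NCAM+ cells. Between genotypes it gave 114 to 124 in NPCs, 28 (without slow/slow replicate 2) to 80 (without slow/slow replicate 1) in PSA-NCAM+ cells and 3 to 13 for the difference of the genotype effect. The share ranged from 69.89 to 71.73%, host genes from 224 to 231 in neurons and 220 to 234 in NPCs, and regulators from 12 to 13 and 14 to 15.

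The replicate numbers were not taken as pairs. Deviations of same-numbered samples from their group means had correlations of −0.0749 to −0.0149 between the genotypes' NPCs. They were 0.0171 to 0.103 between slow/slow neurons and ESCs, and 0.193, 0.0284 and 0.194 between the genotypes' PSA-NCAM+ cells. In PSA-NCAM+ cells replicate 1 also had the highest collagen sum of its group in both genotypes. A shared replicate effect there was not tested by itself. With the replicate number as a block limma gave 455, 101 and 53 calls for slow/slow neurons against ESCs, NPCs and PSA-NCAM+ cells, against 454, 96 and 54 without the block. The block gave 11 differences of the genotype effect, 257 and 259 host genes and 14 and 15 regulators in neurons and NPCs.

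Of the single named exons and genes under the alternatives, 937 values kept their direction and call, 18 lost the call and 2 gained it, and 0 reversed. The lost calls were Cd47, Golga4 and Epb4.1l1 in PSA-NCAM+ cells and Khdrbs3 expression in NPCs and neurons, and the gained ones were Esrp1 expression in neurons. The cause was not tested.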
